A study of Mus musculus with 8 samples.

Results

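The genes described here are those with which red cell precursors make hemoglobin and the red cell membrane: the adult globins, the enzymes of heme synthesis, iron carriers, membrane and skeleton proteins, and the erythroid regulators. They come from a written list of 31 gene symbols that was drawn up with earlier results of these data known. Of these, 30 matched a row of the count table through GENCODE M21 on GRCm38 and 1 is not analysed here, so 30 of the 49315 genes in the table form the set. All 30 passed the filter on low counts, together with 17450 genes in all, and their counts ranged from 526 to 185517 per library. The libraries came from the femoral shaft bone of male mice aged 24 weeks and labelled C57BL6, 4 of them homozygous for the Girk3 deletion (Girk3-/-, labelled Girk3 KO, here KO) and 4 wild type (WT). Bone ends were cut off and the marrow was washed out with saline before total RNA was extracted and sequenced in bulk. Girk3, which Kcnj9 encodes, belongs to the potassium channels opened by G proteins, and the part of the gene that was deleted is not given in the sources used here.

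Red cells form in the bone marrow of adult mice. Under erythropoietin, precursors that express the transcription factors Gata1, Tal1 and Klf1 fill with hemoglobin built from alpha and beta globin chains and heme. They lay down a membrane in which the anion exchanger band 3 ties the lipid layer to a spectrin skeleton. The nucleus is then expelled, and the young red cell, or reticulocyte, still carries globin mRNA. The shaft was flushed before extraction and the share of these counts that comes from other cells was not tested. In bulk samples fewer cells of a type and less RNA per cell cannot be told apart.

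The libraries held 30937465 to 32348592 counts in KO and 30087749 to 36553713 in WT, and levels are given as CPM, read counts scaled to a common library total with TMM factors (a correction for differences in library composition). The targeted gene Kcnj9 had 0, 8, 4 and 7 counts in KO replicates 1 to 4 and 7, 6, 6 and 23 counts in WT replicates 1 to 4, too few to check the genotypes. Markers of bone-forming cells were found in all libraries, with 12 osteoblast and osteocyte genes summing to 10200 to 18530 CPM in KO and 9191 to 22150 CPM in WT. The labelled tissue is bone, and skeletal muscle markers were also high, with 13 genes summing to 110300 to 187200 CPM in KO and 70600 to 132400 CPM in WT. The embryonic globins Hba-x, Hbb-bh1, Hbb-bh2 and Hbb-y had at most 12 counts in any library.

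No erythroid gene differed between KO and WT bone past the threshold. In edgeR's quasi-likelihood test, 0 of the 30 genes had a Benjamini-Hochberg adjusted p under 0.05, the smallest being 0.175, and DESeq2 and limma-voom also called 0, while the share called among all genes tested was 0.0115% in edgeR, 6.45% in DESeq2 and 4.04% in limma-voom. An unadjusted edgeR p under 0.05 was found for 4 of the 30 (13.3%), all lower in KO, against 18.2% of all genes in either direction and 8.59% lower in KO. Of the 30 log2 fold changes, 24 were negative and 6 positive, where 51.4% of all genes had a negative one. The median over the 30 genes was -0.35, beside -0.01 over all genes tested. In none of the 30 did the groups separate, while every KO library lay below every WT library in 5.78% of all genes and above it in 7.33%. Without WT replicate 4 the median was -0.07, and without each of the other libraries in turn it lay between -0.59 and -0.28.

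**Figure D1:**
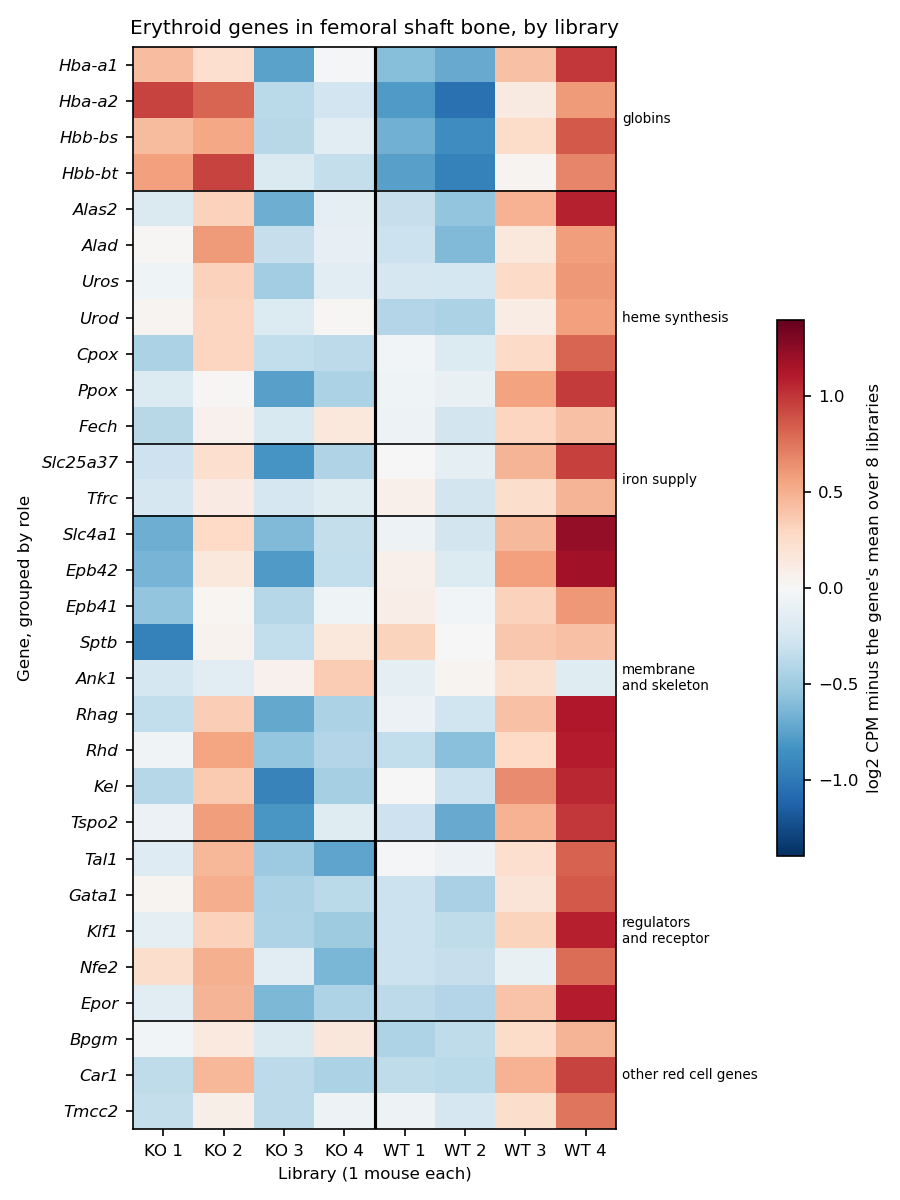
Each row is 1 of 30 erythroid genes and each column 1 library, KO replicates 1 to 4 and then WT replicates 1 to 4. The colour gives log2 CPM minus the gene's mean over the 8 libraries, and 26 of the 30 genes are highest in WT replicate 4.

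The globins, the chains of hemoglobin, had log2 fold changes on both sides of 0, and none passed. Hbb-bs (ENSMUSG00000052305, chromosome 7, 103826534 to 103828096, minus strand), an adult beta globin, was at 3241, 3466, 1810 and 2128 CPM in KO replicates 1 to 4 and at 1490, 1297, 2830 and 4306 CPM in WT replicates 1 to 4. The highest value lay in WT and the lowest too, so the KO values fell inside the WT range. Its log2 fold change was 0.10 (SE 0.39, 95% interval -0.77 to 0.97, edgeR adjusted p = 0.925). Hba-a1 (ENSMUSG00000069919, chromosome 11, 32283511 to 32284465, plus strand), an adult alpha globin, was at 2342, 2056, 1039 and 1707 CPM in KO and at 1155, 1064, 2318 and 3458 CPM in WT, with a log2 fold change of -0.16 (95% interval -1.05 to 0.72, edgeR adjusted p = 0.873). The copies Hba-a2 and Hbb-bt averaged 759 ± 348 and 893 ± 379 CPM in KO and 527 ± 275 and 659 ± 352 CPM in WT (SD, n = 4 each), with log2 fold changes of 0.53 and 0.44 and edgeR adjusted p of 0.554 and 0.614. Summed over the 4 genes, globins made up 0.779, 0.832, 0.385 and 0.405% of all counts in KO and 0.335, 0.301, 0.640 and 1.15% in WT. KO replicates 1 and 2 and WT replicates 3 and 4 were thus the globin-rich libraries, 2 of each genotype.

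The 2 copies of each globin are nearly the same sequence, and the sources used here do not say how reads that fit both were counted. Hba-a2 and Hba-a1 differ at 1 of 429 coding bases, and Hbb-bt and Hbb-bs at 1 of 444. The level of a single copy is therefore uncertain. The sum of a pair does not depend on how reads are split between the copies, but it is too low if reads that fit both were left out. The same limit holds for the globin shares, TPM and ratios given here. With the copies of each pair summed before the fit, the log2 fold change of alpha globin was 0.01 and that of beta globin 0.18. The ratio of Hba-a2 to Hba-a1 counts was 0.472, 0.492, 0.425 and 0.280 in KO and 0.287, 0.262, 0.272 and 0.251 in WT. For Hbb-bt over Hbb-bs it was 0.322, 0.392, 0.338 and 0.262 in KO and 0.279, 0.283, 0.255 and 0.263 in WT. In both pairs KO replicates 1 to 3 lay above all 4 WT libraries and KO replicate 4 did not, so the groups overlapped.

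The promoters of globin genes and of the genes below are shown because these genes were followed against each other within each library. The sequences are the 250 bases before the RefSeq start on GRCm38.p6, and capitals mark GATA letters (AGATAA or AGATAG, and TGATAA or TGATAG) and CACCC box letters (CCNCNCCC), both on either strand. Gata1 and Klf1 are known to bind letters of these kinds.
Hba-a1 promoter, chr11:32283422-32283671, plus strand: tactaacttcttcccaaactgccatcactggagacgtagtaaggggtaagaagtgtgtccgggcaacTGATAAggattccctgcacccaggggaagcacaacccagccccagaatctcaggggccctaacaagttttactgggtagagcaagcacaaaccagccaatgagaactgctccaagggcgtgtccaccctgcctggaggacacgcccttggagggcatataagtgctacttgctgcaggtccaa
Hbb-bs promoter, chr7:103827929-103828178, minus strand: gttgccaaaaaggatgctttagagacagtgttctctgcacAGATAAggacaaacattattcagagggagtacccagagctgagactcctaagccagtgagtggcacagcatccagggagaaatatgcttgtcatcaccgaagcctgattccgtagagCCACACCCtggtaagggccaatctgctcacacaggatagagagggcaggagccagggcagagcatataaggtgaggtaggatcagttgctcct
Hbb-bt promoter, chr7:103813924-103814173, minus strand: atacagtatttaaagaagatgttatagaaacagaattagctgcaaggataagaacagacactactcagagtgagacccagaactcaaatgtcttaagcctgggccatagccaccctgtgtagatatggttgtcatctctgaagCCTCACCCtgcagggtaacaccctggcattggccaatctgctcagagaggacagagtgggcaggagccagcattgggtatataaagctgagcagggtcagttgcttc
Alas2 promoter, chrX:150547167-150547416, plus strand: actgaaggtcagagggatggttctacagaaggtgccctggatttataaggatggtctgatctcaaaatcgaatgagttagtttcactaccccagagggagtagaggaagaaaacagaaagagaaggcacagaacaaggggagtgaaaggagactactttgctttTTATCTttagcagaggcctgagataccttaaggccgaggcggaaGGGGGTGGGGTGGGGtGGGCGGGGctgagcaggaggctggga
Epb42 promoter, chr2:121036878-121037127, minus strand: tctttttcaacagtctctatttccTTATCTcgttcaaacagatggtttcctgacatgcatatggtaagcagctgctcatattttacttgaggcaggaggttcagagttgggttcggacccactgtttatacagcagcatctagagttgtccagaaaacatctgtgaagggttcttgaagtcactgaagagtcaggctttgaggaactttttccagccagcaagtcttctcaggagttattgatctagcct
Klf1 promoter, chr8:84901732-84901981, plus strand: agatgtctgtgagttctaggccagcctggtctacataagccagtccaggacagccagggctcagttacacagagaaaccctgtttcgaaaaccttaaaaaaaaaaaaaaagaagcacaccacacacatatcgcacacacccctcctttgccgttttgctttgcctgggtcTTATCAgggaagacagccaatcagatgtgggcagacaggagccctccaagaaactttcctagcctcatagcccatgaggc
Epor promoter, chr9:21963577-21963826, minus strand: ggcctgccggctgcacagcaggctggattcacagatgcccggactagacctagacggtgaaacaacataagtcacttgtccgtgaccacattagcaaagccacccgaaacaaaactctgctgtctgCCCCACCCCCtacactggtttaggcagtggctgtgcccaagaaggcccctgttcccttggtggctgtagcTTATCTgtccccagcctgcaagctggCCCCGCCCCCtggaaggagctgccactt
Ppox promoter, chr1:171281187-171281436, minus strand: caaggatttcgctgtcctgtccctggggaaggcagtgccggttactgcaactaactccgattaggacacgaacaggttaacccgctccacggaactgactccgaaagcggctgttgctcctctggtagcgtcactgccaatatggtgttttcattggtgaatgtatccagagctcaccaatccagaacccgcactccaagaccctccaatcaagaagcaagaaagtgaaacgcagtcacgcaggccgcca
Of the 32 promoter windows that RefSeq lists for 24 of the members, 15 (46.9%) held GATA letters and 18 (56.2%) CACCC letters, against 26.5% and 45.9% of all 32851 windows. Both kinds of letters stood together in 5 member windows (15.6%), those of Alas2, Epb41, Epor, Hbb-bs and Tmcc2, against 8.19% of all windows. The Hba-a1 and Hbb-bt windows each held 1 of the 2 kinds, and the Ppox window held neither. A match is a description of the letters and no evidence of binding.

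The heme enzymes had values on both sides of 0, and none passed. Alas2 (ENSMUSG00000025270, chromosome X, 150547375 to 150570638), the erythroid enzyme of the first and rate-limiting step, was at 181, 261, 130 and 192 CPM in KO and at 168, 143, 292 and 441 CPM in WT. The groups overlapped, with 2 WT libraries above all KO libraries, and the log2 fold change was -0.45 (SE 0.35, edgeR adjusted p = 0.538). Ppox (ENSMUSG00000062729, chromosome 1, 171275990 to 171281186), which oxidises protoporphyrinogen, was at 85.2, 98.1, 57.3 and 71.3 CPM in KO and at 92.9, 90.4, 143 and 191 CPM in WT. Only KO replicate 2 reached into the WT range, and the log2 fold change was -0.73 (SE 0.26, 95% interval -1.31 to -0.16), with an unadjusted p of 0.0179 and an edgeR adjusted p of 0.182. Ppox lies 1.04 Mb from Kcnj9 on the same chromosome, and B4galt3 overlaps it on the opposite strand. The strand setting of the counting is not given, so reads of such a partner cannot be told apart, and the same holds for Alas2 with Apex2, Uros with Bccip, Cpox with Gpr15 and Sptb with Plekhg3. Cpox, the enzyme before Ppox, had a log2 fold change of -0.44, and Uros, Fech, Urod and Alad lay between -0.21 and 0.06. Fech, which inserts iron into the ring, was at 148 to 213 CPM in KO and 162 to 257 CPM in WT.

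Both iron carriers had negative values that did not pass. Slc25a37 (ENSMUSG00000034248, chromosome 14, 69241848 to 69285112), or mitoferrin, which brings iron into mitochondria, was at 280, 402, 193 and 255 CPM in KO and at 342, 312, 475 and 665 CPM in WT. Only KO replicate 2 lay inside the WT range. The log2 fold change was -0.67 (SE 0.28, 95% interval -1.30 to -0.04, unadjusted p = 0.0404, edgeR adjusted p = 0.251). Tfrc, the transferrin receptor that takes iron into the cell, was at 245 ± 29.7 CPM in KO and 298 ± 62.8 CPM in WT (SD, n = 4 each), with a log2 fold change of -0.28 (edgeR adjusted p = 0.438).

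Of the 9 membrane and skeleton genes 8 had log2 fold changes below 0 and none passed, and the median of the 9 was -0.49. Epb42 (ENSMUSG00000023216, chromosome 2, 121017891 to 121037072), which encodes protein 4.2, was at 35.9, 62.8, 32.7 and 44.6 CPM in KO and at 59.5, 49.6, 84.0 and 127 CPM in WT. KO replicate 2 alone overlapped the WT range, and the log2 fold change of -0.86 (SE 0.30, 95% interval -1.53 to -0.20) was the most negative of the 30 (unadjusted p = 0.0163, edgeR adjusted p = 0.175). Slc4a1 (ENSMUSG00000006574, chromosome 11, 102348824 to 102366203), the band 3 anion exchanger, was at 293, 572, 307 and 373 CPM in KO and at 448, 393, 645 and 1102 CPM in WT (log2 fold change -0.74, SE 0.34, edgeR adjusted p = 0.285). Epb41 (ENSMUSG00000028906, chromosome 4, 131923413 to 132075321), whose protein 4.1 joins spectrin to actin, was at 136, 204, 151 and 191 CPM in KO and at 213, 194, 250 and 305 CPM in WT. Again KO replicate 2 alone reached the WT range (log2 fold change -0.49, SE 0.19, unadjusted p = 0.0247, edgeR adjusted p = 0.206). The beta spectrin gene Sptb had a log2 fold change of -0.49, with KO replicate 1 at 123 CPM and the other KO libraries at 186 to 263 CPM, against 236 to 314 CPM in WT.

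The blood group proteins of the membrane followed a like order of libraries. Kel (ENSMUSG00000029866, chromosome 6, 41686330 to 41704339), a membrane endopeptidase that carries the Kell antigens in humans, was at 69.4, 118, 47.7 and 66.2 CPM in KO and at 92.0, 74.3, 145 and 190 CPM in WT (log2 fold change -0.73, edgeR adjusted p = 0.278). The Rh family gene Rhag had a log2 fold change of -0.63, Rhd one of -0.31 and the sterol-binding protein gene Tspo2 one of -0.30, with edgeR adjusted p of 0.328, 0.706 and 0.729. Ank1, the ankyrin that links band 3 to spectrin, was at 372, 395, 458 and 564 CPM in KO and at 403, 452 and 514 CPM in WT replicates 1 to 3 and lower in WT replicate 4, with a log2 fold change of 0.02. It was highest in KO replicate 4, the library with the highest muscle marker sum, and lowest among WT in replicate 4, which had the lowest. Ank1 is also transcribed in skeletal muscle, and the part of muscle in its counts was not tested.

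The 5 regulators had values below 0 without passing. Their median log2 fold change was -0.44, and without WT replicate 4 it was -0.045, with 2 of the 5 above 0. Tal1 and Klf1, transcription factors of the erythroid programme, had log2 fold changes of -0.45 and -0.46, with levels of 57.9 ± 22.5 and 36.0 ± 9.88 CPM in KO and 79.3 ± 25.0 and 49.6 ± 25.1 CPM in WT (SD, n = 4 each). Gata1 (ENSMUSG00000031162, chromosome X, 7959260 to 7978071), the master factor of the lineage, was at 39.0, 54.0, 27.9 and 29.4 CPM in KO and at 31.02, 27.8, 43.2 and 69.1 CPM in WT, with a log2 fold change of -0.19 (edgeR adjusted p = 0.796). The erythropoietin receptor gene Epor was at 31.7, 48.9, 22.6 and 26.1 CPM in KO and at 27.2, 26.4, 46.3 and 75.4 CPM in WT, with a log2 fold change of -0.44 (edgeR adjusted p = 0.554). Nfe2, a globin regulator that megakaryocytes also express, had one of -0.04. Nfe2 was at 81.6, 97.3, 61.9 and 44.0 CPM in KO and at 55.7, 54.8, 63.7 and 118 CPM in WT, and the highest value was that of WT replicate 4. Of the remaining members, Bpgm makes the bisphosphoglycerate that lowers oxygen affinity, Car1 is a carbonic anhydrase and Tmcc2 is a transmembrane protein gene. Tmcc2 was at 203, 270, 197 and 242 CPM in KO and at 243, 216, 301 and 428 CPM in WT, and the log2 fold changes of the 3 genes were -0.02, -0.41 and -0.38, with edgeR adjusted p of 0.970, 0.539 and 0.393.

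**Figure D2:**
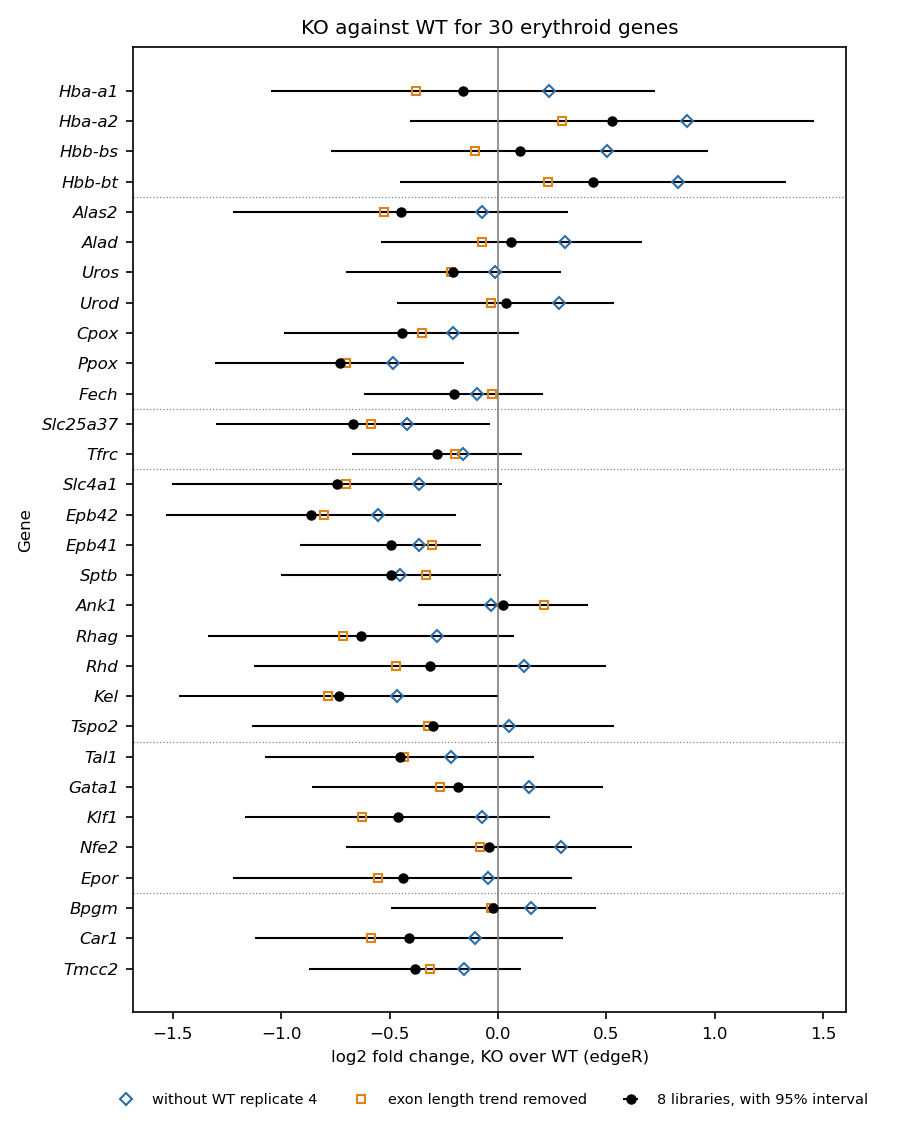
Log2 fold changes of KO over WT for the 30 genes in edgeR, with the 95% interval as a bar, the value without WT replicate 4 as a diamond and the value with the exon length trend removed as a square. The intervals of Ppox, Slc25a37, Epb42 and Epb41 lie below 0, and none of the 4 passed after adjustment.

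Compared per length as TPM, the order of the globins was the same in both genotypes. Hbb-bs was at 8527 ± 3342 TPM in KO and 9016 ± 5882 TPM in WT, and Hba-a1 at 5343 ± 1900 TPM in KO and 6867 ± 4484 TPM in WT. Hbb-bt followed at 3172 ± 1669 TPM in KO and 2614 ± 1644 TPM in WT, and Hba-a2 at 2815 ± 1457 TPM in KO and 2197 ± 1328 TPM in WT (SD, n = 4 each). The mean ± SD ranges of neighbours in this order overlapped in both genotypes. The next members were Slc4a1 at 195 ± 86.9 TPM in KO and 369 ± 222 TPM in WT and Alas2 at 195 ± 73.2 TPM in KO and 302 ± 186 TPM in WT (SD, n = 4 each). Epb42 in KO and Tspo2 in WT were the lowest, the first at 19.96 ± 8.17 TPM and the second at 30.1 ± 18.0 TPM. Exon lengths join all annotated transcripts of a gene, which lowers the TPM of genes with long rare forms such as Fech, with 13838 joined bases.

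WT replicates 3 and 4 were the 2 highest WT libraries for 29 of the 30 genes, while the lowest KO library differed between gene groups. WT replicate 4 was the highest of the 8 libraries for 26 of the 30 genes and of the 4 WT libraries for 29, and KO replicate 2 the highest of the 4 KO libraries for 24. WT replicate 2 was the lowest WT library for 28 genes, and KO replicates 1, 3 and 4 were the lowest KO library for 7, 18 and 5. The ratio of the highest to the lowest library had a median over the 30 genes of 1.93 in KO and 2.40 in WT, beside 1.38 in KO and 1.36 in WT for all 9713 genes that averaged at least 10 CPM. Heme genes summed to 722, 998, 626 and 779 CPM in KO and to 734, 660, 1060 and 1428 CPM in WT. Membrane and skeleton genes summed to 1155, 1793, 1270 and 1609 CPM in KO and to 1626, 1495, 2123 and 2723 CPM in WT. Regulators summed to 246, 340, 188 and 167 CPM in KO and to 210, 202, 279 and 464 CPM in WT. WT replicate 4 was the highest in each of these sums, and KO replicate 2 was above WT replicates 1 and 2 in all 3.

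**Figure D3:**
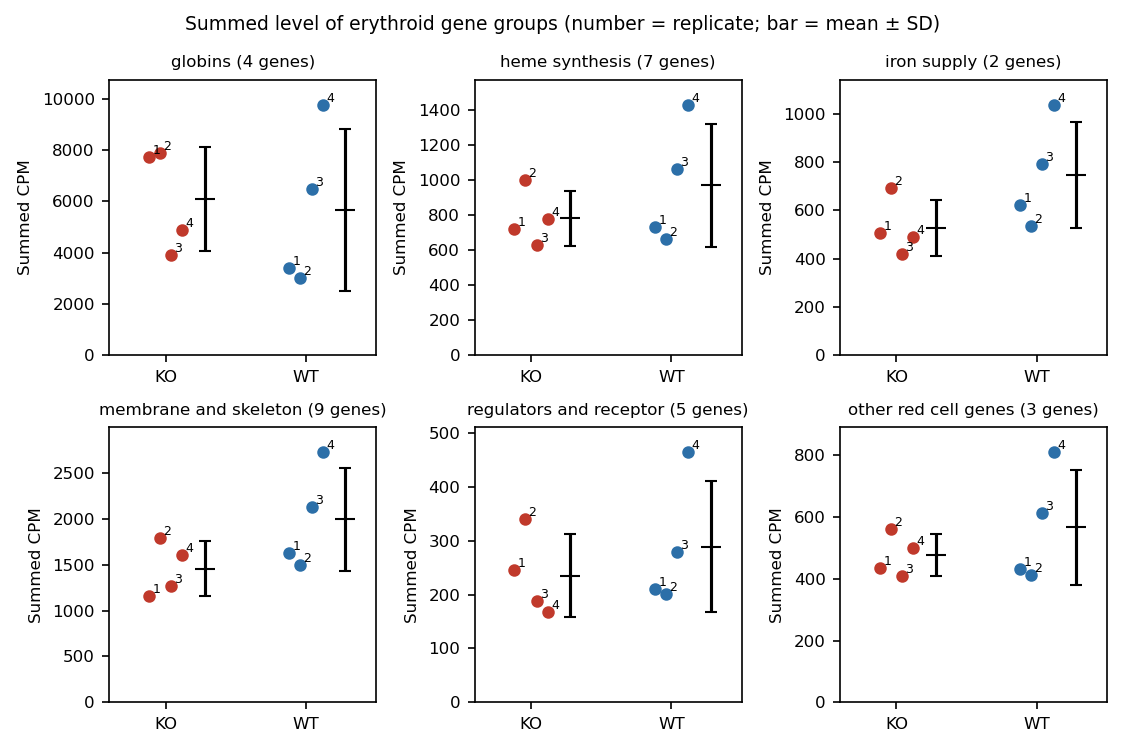
Summed CPM of 6 groups of erythroid genes in KO and WT libraries, with the replicate number beside each point and the mean ± SD of 4 libraries as a bar. The groups overlap in all 6 panels, and WT replicate 4 is the highest point in each.

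Within a library, globin counts stood higher relative to many other erythroid genes in KO than in WT. The sum of the 4 globins over Slc4a1 was 26.4, 13.8, 12.7 and 13.1 in KO and 7.57, 7.66, 10.1 and 8.86 in WT, so every KO library lay above every WT library. Over Epb42 it was 215, 126, 119 and 109 in KO and 57.0, 60.6, 77.3 and 76.6 in WT. Over Alas2 it was 42.7, 30.3, 29.98 and 25.4 in KO and 20.2, 21.03, 22.3 and 22.2 in WT. Over Epor it was 244, 162, 173 and 187 in KO and 125, 114, 140 and 130 in WT. Library size and scaling cancel in such a ratio. A ratio without globins, Slc4a1 over Gata1, was 7.52, 10.59, 10.97 and 12.7 in KO and 14.45, 14.13, 14.93 and 15.96 in WT. The groups did not overlap, but this pair was picked from many possible ones. The share of other pairs that separate was not computed, and the exon length trend was not removed from this ratio. Ank1 over Slc4a1 overlapped. Alpha over beta globin counts overlapped too, at 0.804, 0.636, 0.611 and 0.814 in KO and 0.780, 0.807, 0.830 and 0.796 in WT.

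The lowest KO globin ratio exceeded the highest WT one for 12 of the 26 other erythroid genes (46.2%). It did so for 1.1% of all tested genes other than globins with a count in every library, the 26 included. A gene that varies with the globins between libraries separates more easily in such a ratio than one that does not. These shares therefore do not compare like with like. These 12 were Alas2, Ppox, Slc25a37, Slc4a1, Epb42, Rhag, Rhd, Kel, Tspo2, Tal1, Klf1 and Epor. Some gaps were narrow. The lowest KO and highest WT ratios were 131.8 and 131.2 over Klf1, 85.46 and 84.84 over Tal1, and 81.61 and 80.86 over Rhd. The opposite separation was found for 0 of the 26. For Gata1 the ratio was 198, 146, 140 and 166 in KO and 109, 108, 150 and 141 in WT, which overlapped, as did the ratios over Alad, Uros, Urod, Cpox, Fech, Tfrc, Epb41, Sptb, Ank1, Nfe2, Bpgm, Car1 and Tmcc2. The ratio was chosen after its values were seen, the 26 genes share the same globin counts and vary together, and no test was made of it. With alpha globin counts alone the number was 7, and with beta globin counts alone 14.

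Exon length moved with this result. Over all genes, the median log2 fold change was 0.21 in the 1742 shortest genes (up to 1166 bases) and -0.19 in the 1742 longest (at least 9242 bases), and the 4 globins have 667 to 812 exon bases while the other members have 1248 to 15942. With each library's trend of level on exon length removed, the number of separated genes was 10 of 26, beside 0.772% of all genes other than globins. Rhd, Tspo2 and Tal1 no longer separated, and Car1 did. The globin ratio over Slc4a1 was then 19.9, 13.2, 12.3 and 12.1 in KO and 8.89, 8.12, 10.6 and 9.16 in WT. The median log2 fold change of the 4 globins was 0.27 as counted and 0.06 with the trend removed, and that of the other 26 genes -0.43 and -0.34. What lies behind the length trend was not tested.

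**Figure D4:**
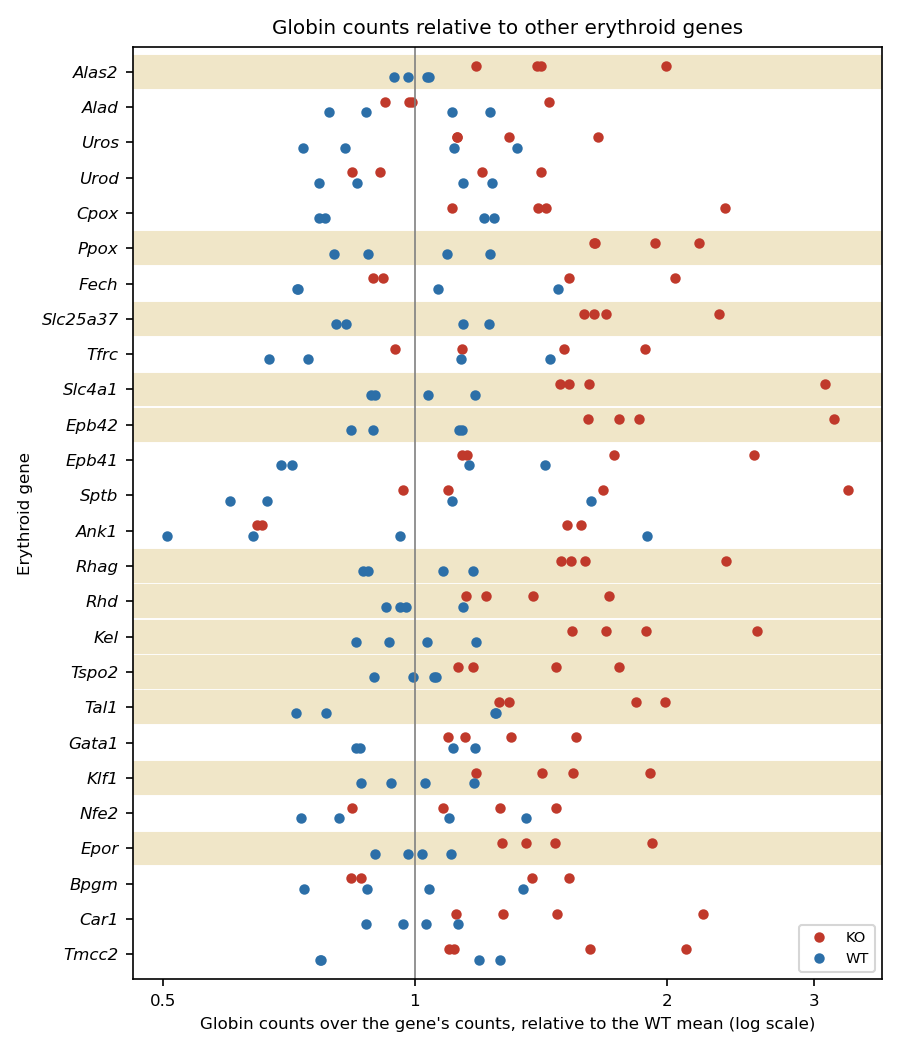
Summed globin counts divided by the counts of each of 26 other erythroid genes, relative to the WT mean of that ratio on a log axis, with 1 point per library. Shaded rows are the 12 genes in which every KO library lies above every WT library.

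Further erythroid genes, listed for their known roles with earlier results of these data known, also leaned to values below 0 without an edgeR call. Of 54 genes listed 52 were tested, 44 with negative and 8 with positive log2 fold changes, a median of -0.29 and 0 called by edgeR, where 11 had an unadjusted p under 0.05 (9 lower, 2 higher). Over all genes 18.2% had such a p, 8.59% lower, and 51.4% had a negative log2 fold change. The 11 of 52 in either direction is thus near the share of all genes, while the 9 of 52 lower is above its share. That difference was not tested. Piezo1, a stretch-activated ion channel that also occurs in bone and vessel cells, was at 17.0, 33.7, 36.5 and 35.4 CPM in KO and at 67.4, 69.5, 56.1 and 57.0 CPM in WT, and the groups did not overlap. Its log2 fold change was -1.03 (SE 0.22, edgeR adjusted p = 0.0769), and DESeq2 and limma-voom called it, with adjusted p of 0.00165 and 0.0237. Its libraries did not follow the red cell order, since WT replicate 4 was not its highest WT library, and over the alternative settings its adjusted p ranged up to 0.481. Zfpm1, the Gata1 partner FOG1, was at 38.8, 57.1, 39.8 and 37.8 CPM in KO and at 52.1, 55.6, 69.9 and 113 CPM in WT, with a log2 fold change of -0.75 (edgeR adjusted p = 0.162).

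Other blood cell markers did not all vary with the erythroid genes. Granulocyte and precursor markers summed to 7789, 3876, 6551 and 842 CPM in KO and to 2326, 3490, 1646 and 5806 CPM in WT. KO replicates 1 and 3, the highest for granulocytes, were the lowest KO libraries in the membrane and skeleton, heme and other red cell sums. In the globin, iron carrier and regulator sums they were not the lowest pair. KO replicate 4, the lowest KO library for granulocytes, was the lowest for regulators. Among WT libraries, replicate 4 was the highest both for granulocytes and for each group of erythroid genes. All 14 granulocyte genes had positive log2 fold changes (median 0.42), with Camp at 0.84 and Retnlg at 0.81. In edgeR 0 of the 14 were called and 0 had an unadjusted p under 0.05, while 2, Camp and Ms4a3, passed in at least 1 alternative setting. Megakaryocyte and platelet markers summed to 998, 1213, 890 and 305 CPM in KO and to 537, 636, 440 and 1359 CPM in WT (median log2 fold change 0.19). Pf4 had a log2 fold change of 0.63 and Gp1ba one of -0.20, and 0 of the 12 were called by edgeR. In at least 1 alternative 8 passed, Pf4 with an edgeR adjusted p of 0.00939 without both replicates 4. Over all genes, 458 passed in that setting and 928 with the muscle score as a covariate. The share of all genes that passed in at least 1 alternative was not computed. Proliferation genes, which dividing erythroblasts and other marrow cells express, summed to 748, 1027, 661 and 562 CPM in KO and to 736, 789, 942 and 1547 CPM in WT. They were highest in WT replicate 4 and, within KO, in replicate 2, as the erythroid genes were, with Mki67 at -0.55 and Tpx2 at -0.38.

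The remaining lists also had 0 genes called by edgeR, while DESeq2 called Rag1, Tnni2 and Pvalb and limma-voom none of them. Over all alternative settings, 3 B lineage genes and 2 muscle genes passed in at least 1. So did 1 gene each of the progenitor, macrophage, endothelial, and osteoblast and osteocyte lists. The share of all genes that did so was not computed. In edgeR 0 to 3 genes of each of these lists had an unadjusted p under 0.05. Of the 7 progenitor genes 6 had log2 fold changes below 0, with Runx1 at -0.49 and Mcm2 at -0.46, and their sums were 200 to 270 CPM in KO and 239 to 422 CPM in WT. B lineage genes had a median of -0.37, with Rag1 at -0.80. Macrophage markers had a median of 0.08, with Cd163 at -0.37 and C1qa at 0.31, and endothelial markers one of 0.03, with Esam and Emcn at 0.27 and 0.26. Muscle markers had a median of 0.32, with Tnni2 at 0.80 and Pvalb at 0.77. The highest muscle sum stood in KO replicate 4 at 187200 CPM and the lowest in WT replicate 4 at 70600 CPM, the library highest for 26 of the 30 erythroid genes. With the muscle score as a covariate the median log2 fold change of the 30 erythroid genes was -0.05, and with the granulocyte and B lineage score it was -0.33. The part of muscle in the erythroid values was not tested further. Osteoblast and osteocyte genes had a median of -0.25, with Runx2 at -0.43 and Sp7 at -0.37, and of the theta globins, which stood with the embryonic ones, Hbq1b had a log2 fold change of -0.36 and Hbq1a one of -0.13.

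**Figure D5:**
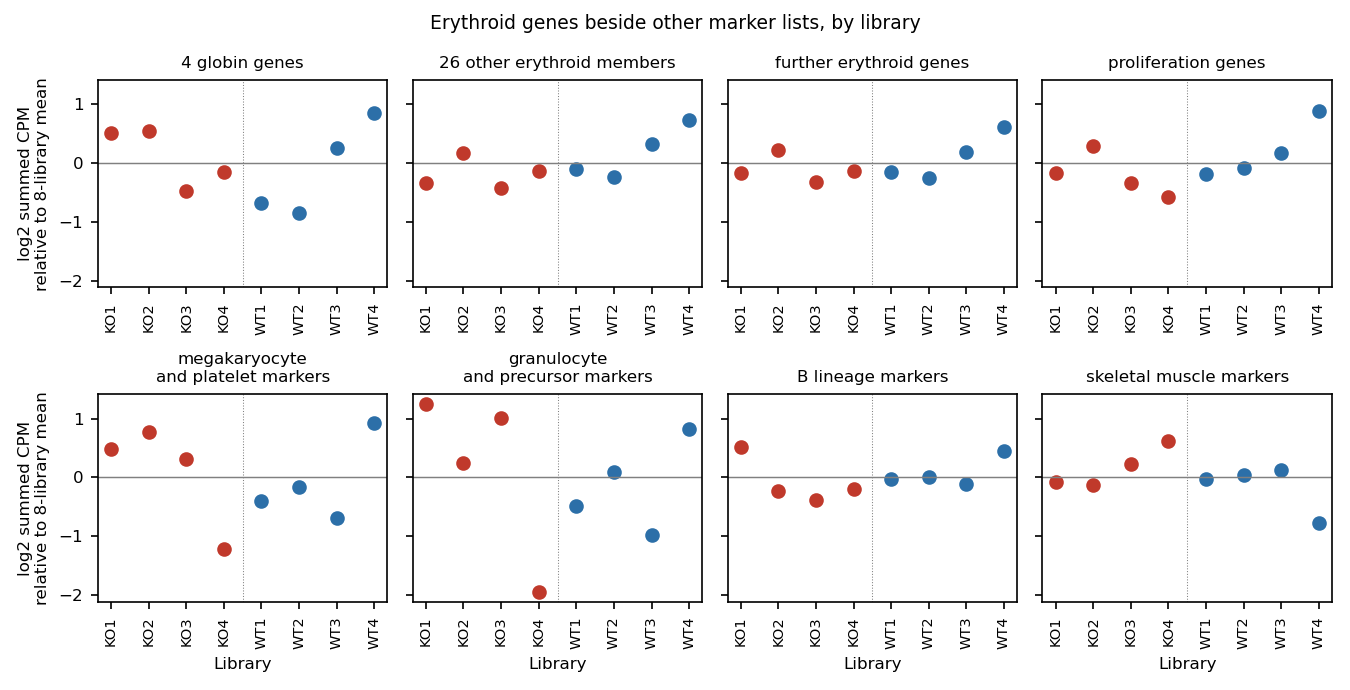
Summed CPM of the globins, the other 26 erythroid genes and 6 further lists in each library, on a log2 scale relative to the mean of the 8 libraries. WT replicate 4 is the highest library for the erythroid, proliferation and megakaryocyte panels, and KO replicate 1 for the granulocyte and B lineage panels.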

How the data were processed

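Bulk RNA sequencing of femoral shaft bone gave 8 libraries, 4 KO and 4 WT, grouped by the sample titles. With 4 mice per genotype in the labels, a library stands for 1 mouse. The authors deposited whole-number read counts per Ensembl gene, which were used as deposited. The submitters' processing notes name Subread 1.5.2, featureCounts, STAR 2.5.2b, bcl2fastq 2.17 and build mm10. Sources used here do not give the annotation, the strand setting or the treatment of reads with several matches. GENCODE M21 (GRCm38, the same build) gave symbols and exon lengths for 49056 of 49315 IDs, and the other 259 held at most 0.0225% of a library's counts.

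KO and WT were compared over all genes with edgeR 4.0.16 in R 4.3.3 (quasi-likelihood test, robust dispersion, TMM, filterByExpr, group as the only term), with Benjamini-Hochberg adjustment over 17450 genes and a threshold of 0.05. DESeq2 1.42.0, limma-voom (limma 3.58.1), other scalings and filters, covariates, length offsets (loess span 0.3), a replicate block and leaving out libraries were alternatives. Fold changes are log2, KO over WT. Intervals are 95% intervals from the fit. Depth limits no member, since each had at least 526 counts in every library, and the spread between mice sets the precision.

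The members and gene lists were chosen with earlier results of these data known. All members are described. Of each other list, the called genes or else the 2 with the smallest p were to be named, and 1 of these is not reported here. Promoter sequences are RefSeq's on GRCm38.p6.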

Additional observations from a re-analysis of the deposited data

Results flagged for a closer look

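In each group of 4 libraries the highest and lowest value were compared with the nearest other library. Of 138 such groups, over members, group sums and ratios, 9 held a library that stood apart. Chance alone gives about 1 in 20 groups, so 9 of 138 is not far above that rate. Many of these groups share libraries and counts.

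KO replicate 2 stood above the other KO libraries for the heme enzyme gene Cpox at 149 CPM (others 89.3 to 95.4), for the transferrin receptor gene Tfrc at 289 CPM (others 227 to 237) and for the carbonic anhydrase gene Car1 at 81.2 CPM (others 43.2 to 45.9). WT replicate 4 stood above the other WT libraries for Nfe2 at 118 CPM (others 54.8 to 63.7).

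KO replicate 1 stood above the other KO libraries in 5 ratios of summed globin counts to another erythroid gene. They were 110 over Alad (others 70.0 to 75.4), 27.7 over Slc25a37 (19.1 to 20.2), 26.4 over Slc4a1 (12.7 to 13.8), 215 over Epb42 (109 to 126) and 227 over Rhag (144 to 154). For Slc25a37, Slc4a1, Epb42 and Rhag the other 3 KO libraries also lay above every WT library.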

How the results depend on the processing

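No erythroid member was called under any of the 20 settings tried over the whole table, so the count of 0 held under all of them, with a smallest adjusted p of 0.067 (Nfe2 with the muscle score as a covariate). The count over all genes, 2 in the edgeR fit as reported, was 994 with DESeq2, 705 with limma-voom, 458 without both replicates 4, 928 with the muscle score, 918 with the granulocyte and B lineage score, 71 without the low-count filter, 1 with the replicate block and 2 to 4 with 1 library left out. Of the further erythroid genes 1, Piezo1, was called with DESeq2, limma-voom and each of the 2 covariates, and 0 otherwise. The median log2 fold change of the members was -0.59 to -0.07 with 1 library left out. The labels do not say whether replicate numbers pair the mice. Deviations of KO and WT libraries with the same number correlated at -0.568 to -0.166, and 0 of 4 KO libraries correlated best with its own number. These correlations cannot decide whether mice were paired, since paired mice need not deviate together. The number of members in which the lowest KO globin ratio exceeded the highest WT one was 7 with alpha globin counts alone, 14 with beta globin counts alone and 10 with the length trend removed, alternatives chosen after seeing the data, against 12.

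Of 602 single-gene values under the alternatives, 543 kept their direction and 59 did not, all for genes that passed in no setting. Without both replicates 4, the log2 fold change was 0.26 for Hba-a1, 0.021 for Uros, -0.16 for Ank1, 0.22 for Rhd, 0.096 for Tspo2, 0.25 for Gata1, 0.031 for Klf1, 0.47 for Nfe2, 0.048 for Epor, 0.11 for Bpgm. With the muscle score as a covariate, the log2 fold change was 0.27 for Hba-a1, 0.038 for Uros, -0.16 for Ank1, 0.20 for Rhd, 0.10 for Tspo2, 0.24 for Gata1, 0.012 for Klf1, 0.44 for Nfe2, 0.034 for Epor, 0.13 for Bpgm. With limma-voom, the log2 fold change was 0.095 for Hba-a1, -0.036 for Ank1, 0.072 for Rhd, 0.092 for Gata1, 0.23 for Nfe2, 0.14 for Bpgm. With library totals in place of TMM, which moved the median of all genes to -0.11, the log2 fold change was -0.022 for Hbb-bs, -0.049 for Alad, -0.086 for Urod, -0.088 for Ank1. With the exon length trend removed, the log2 fold change was -0.11 for Hbb-bs, -0.072 for Alad, -0.033 for Urod. With the globin copies summed, the log2 fold change was 0.011 for Hba-a1. With the replicate block, the log2 fold change was 0.022 for Bpgm. With 1 library left out at a time, the values ran from -0.11 to 0.50 for Hbb-bs, -0.16 to 0.31 for Alad, -0.089 to 0.28 for Urod, -0.37 to 0.24 for Hba-a1, -0.23 to 0.29 for Nfe2, -0.15 to 0.15 for Bpgm, -0.10 to 0.11 for Ank1, -0.59 to 0.12 for Rhd, -0.59 to 0.050 for Tspo2, -0.42 to 0.14 for Gata1. The cause of these changes was not tested.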
